A study of Mus musculus with 6 samples.

Results

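Genes whose Sertoli cell expression is known to depend on follicle-stimulating hormone (FSH) or androgen, together with the FSH receptor, were followed in whole mouse testis: Fshr, Shbg, Rhox5, Rhox8, Drd4, Aard, Trf, Clu and Defb19. They were chosen by name for these hormones, with earlier results of these data known. They make up 9 of the 55850 gene rows of the deposited table. The study has 6 untreated RNA libraries, 3 with the genotype label WT (wild type) and 3 with the label CKO (conditional knockout, written cKO here). Its question is what the loss of the splicing factor SRSF2 from Sertoli cells does to testis RNA. The sources used here do not give the Cre driver, the deleted part of Srsf2, the strain or the age. They also do not say whether each library is a separate animal, so the p-values cover the spread among these libraries, which may be technical.

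Sertoli cells are the somatic cells of the seminiferous tubule and the testicular targets of both hormones. FSH binds its receptor on the Sertoli cell surface, a receptor coupled to the stimulatory G protein, which raises cyclic AMP and activates protein kinase A and the factor CREB. Testosterone made by Leydig cells acts in the nucleus through DNA elements built from the half-site AGAACA. Levels are given in FPKM, in which reads or fragments are divided by the length of the gene and the size of the library, so levels of different genes can be set side by side.

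Of the members, 4 had a promoter in the RefSeq table of GRCm38.p6 (Fshr, Shbg, Rhox5 and Drd4). The 250 bases before the gene start are shown for Fshr, the receptor, and for Shbg, the member with the lowest p of those below, since they carry different motifs. Fshr lies on the minus strand at chr17:89200676-89200925 and Shbg on the minus strand at chr11:69617906-69618155. Capitals mark CACGTG, an E box of the kind bound by the factors USF1 and USF2, and AGAACA or its reverse complement TGTTCT.

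Fshr: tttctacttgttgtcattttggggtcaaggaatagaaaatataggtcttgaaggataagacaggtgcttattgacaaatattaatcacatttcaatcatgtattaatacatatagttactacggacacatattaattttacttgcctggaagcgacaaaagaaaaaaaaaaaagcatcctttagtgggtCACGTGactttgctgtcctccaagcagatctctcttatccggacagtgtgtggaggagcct

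Shbg: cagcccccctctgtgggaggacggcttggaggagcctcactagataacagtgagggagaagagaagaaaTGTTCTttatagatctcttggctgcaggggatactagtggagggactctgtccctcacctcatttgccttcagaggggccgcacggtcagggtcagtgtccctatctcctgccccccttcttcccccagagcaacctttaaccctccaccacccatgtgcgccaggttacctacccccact

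In Fshr, CACGTG began 61 bases before the gene start, and 6.02% of 32851 promoter windows of this length held it on either strand. In Shbg, the half-site began 181 bases before the start, and 16.1% of windows held it. The Rhox5 window also held the half-site, but its RefSeq start lies 50234 bases from the start in the GENCODE M21 annotation, so it is not the promoter next to the annotated gene. Searched on both strands, none of the 4 windows held TGACG, the half-site of the cyclic AMP response element (17.8% of windows), the full androgen response element (0.00913%) or AAGGTCA, bound by SF-1 (4.08%). The looser E box CANNTG, which includes CACGTG, was in 66.2% of windows and in those of Fshr, Shbg and Rhox5. The Shbg window also held the GATA motif AGATAA (9.99% of windows), and none held TGATAA (7.94%). A match describes letters in a window and not a bound site.

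Depth was even, at 16070287 to 17281330 reads per library recovered from the table. Srsf2, the targeted gene, stood at 127, 96.7 and 102 FPKM in WT and at 74.0, 87.3 and 87.3 in cKO testis. Reads of the 18S ribosomal RNA took 1.58 to 2.09% of each WT library and 0.727 to 0.835% of each cKO library, and mitochondrial genes took 1.66 to 1.98% and 2.39 to 2.97%. All 13 Sertoli markers had a mean above 1 FPKM. The 5 epididymis markers summed to 0.188 to 0.247 FPKM in WT and 0.411 to 0.746 in cKO, with Lcn5 and Lcn9 at 0 in every library, and the 4 liver markers to 0.353 to 4.45 and 0.628 to 0.934.

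Across the members, 5 were lower in every cKO library than in any WT library among the 8 with a mean of at least 1 FPKM: Shbg, Rhox5, Rhox8, Aard and Defb19. Fshr, Trf and Clu overlapped between groups. No member passed limma's test over all genes after Benjamini-Hochberg adjustment (0 of 8), where 0.0140% of 14238 tested genes did. At an unadjusted limma p under 0.05, 5 members were lower and 0 higher, against 7.68% of tested genes lower and 4.65% higher. The number of tested genes on those sides was 1094 lower and 662 higher, and 638 and 1126 when the libraries were rescaled without 18S, mitochondrial and haemoglobin genes, under which the same 5 members were lower. Groups stood apart with cKO lower for 9.92% of tested genes and with cKO higher for 8.69%. The median log2 difference of the 8 tested members was -0.60, and 0.00 over all tested genes. The 8 had a group mean above 1 FPKM in both groups, so none was tested through one group alone.

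**Figure D1:**
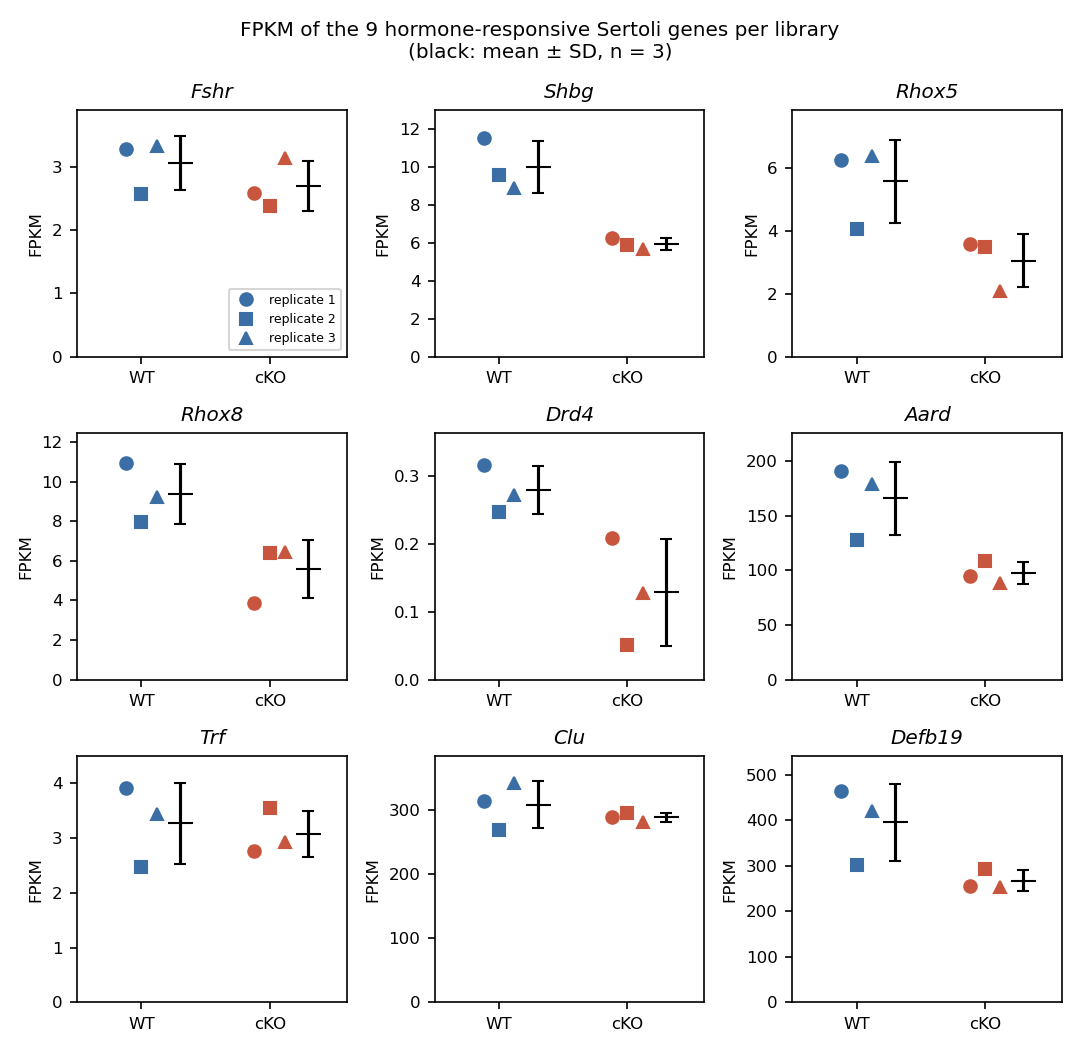
FPKM of each of the 9 genes in the 3 WT (blue) and 3 cKO (red) libraries, with a symbol for each replicate number and the mean ± SD (n = 3) in black; each vertical axis starts at 0. Shbg, Rhox5, Rhox8, Drd4, Aard and Defb19 have every cKO point below every WT point, while Fshr, Trf and Clu overlap.

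The gene of the FSH receptor overlapped between groups. Fshr (ENSMUSG00000032937, chromosome 17, 88984952 to 89200675 of GRCm38, minus strand, 10 exons) was at 3.28, 2.57 and 3.33 FPKM in WT and at 2.58, 2.38 and 3.14 in cKO testis. The cKO libraries lay within or just under the WT range. The means were 3.06 ± 0.420 and 2.70 ± 0.394 FPKM (SD, n = 3), which is -0.13 on the log2 scale (95% interval -0.47 to 0.20, limma adjusted p = 0.708). Leaving out 1 library in turn gave -0.22, without WT replicate 2 or cKO replicate 3, to -0.07, without cKO replicate 2. These values rest on 99 to 128 reads per library. A p that misses the threshold does not show equal levels, and the interval allows a difference of -0.47 on the log2 scale.

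Shbg encodes sex hormone binding globulin, made in rodent Sertoli cells as androgen binding protein. The gene (ENSMUSG00000005202, chromosome 11, 69614804 to 69617905, minus strand, 8 exons) was at 11.5, 9.57 and 8.92 FPKM in WT and at 6.26, 5.88 and 5.66 in cKO testis. The cKO libraries were closely grouped and all lay below the WT libraries. The cKO mean was 59.3% of the WT mean, -0.66 on the log2 scale (SE 0.12, 95% interval -0.94 to -0.38, limma adjusted p = 0.316, unadjusted p = 0.000675). Leaving out 1 library in turn gave -0.73 to -0.56. Its exons overlap no other annotated gene. Sat2, an acetyltransferase-family gene that lies 4119 bases away on the other strand, was at 7.38 ± 1.198 and 5.41 ± 0.808 FPKM (SD, n = 3), a log2 difference of -0.39 (limma adjusted p = 0.383), and Atp1b2, a sodium pump subunit gene on the other side, at 0.06.

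The X-linked homeobox genes Rhox5 and Rhox8 encode transcription factors of the reproductive homeobox cluster that are expressed in Sertoli cells, and Rhox5, first called Pem, is a classic androgen-responsive gene. Rhox5 (ENSMUSG00000095180, chromosome X, 37804842 to 37808876, plus strand) was at 6.26, 4.06 and 6.39 FPKM in WT and at 3.57, 3.49 and 2.09 in cKO. WT replicate 2 lay closest to the cKO libraries and cKO replicate 3 was the lowest. On the log2 scale cKO minus WT was -0.70 (SE 0.21, 95% interval -1.18 to -0.21, limma adjusted p = 0.372), on 52 to 159 reads per library. The table gives Rhox5 a length of 1527 bases and GENCODE M21 gives its exons 754 bases, so its FPKM is per the longer length.

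Rhox8 (ENSMUSG00000064137, chromosome X, 37874778 to 37878944, minus strand) was at 10.97, 7.97 and 9.22 FPKM in WT and at 3.89, 6.41 and 6.46 in cKO. Here cKO replicate 1 was the lowest, not cKO replicate 3 as for Rhox5. The log2 difference was -0.67 (SE 0.19, 95% interval -1.12 to -0.23, limma adjusted p = 0.372). It was -0.47 without cKO replicate 1, with an adjusted p of 0.242 and a range of 0.220 to 0.842 over the other left-out libraries.

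Of 27 Rhox genes in the table, 20 were under 1 FPKM in every library and 6 had a mean of at least 1. The other 4 tested genes of the cluster overlapped between groups. Rhox10, a germ cell member, was at 12.01 ± 4.61 and 13.6 ± 3.48 FPKM, Rhox1 at 4.20 ± 2.69 and 3.04 ± 0.473, Rhox7b at 1.081 ± 0.203 and 1.68 ± 0.449, and Rhox13 at 1.86 ± 1.46 and 1.33 ± 0.727 (SD, n = 3). Rhox10 is also counted in the further list of hormone-responsive Sertoli genes below, so that list is not free of germ cell genes. Over the 6 tested genes, 4 differences were negative and 2 positive, with a median of -0.24 on the log2 scale, and 0 passed the adjusted threshold. Rhox genes are close in sequence, and how reads that fit several copies were counted is not stated, so these levels are uncertain.

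Aard, an alanine and arginine rich domain gene of Sertoli cells, was among the more abundant members. The gene (ENSMUSG00000068522, chromosome 15, 52040107 to 52045722, plus strand, 2 exons) was at 191, 128 and 179 FPKM in WT and at 95.03, 109 and 88.6 in cKO testis. Every cKO library was below every WT library, and WT replicate 2 was the lowest of its group. The difference was -0.74 on the log2 scale (SE 0.18, 95% interval -1.16 to -0.33, limma adjusted p = 0.361). With all 6 libraries, this was the most negative of the tested members on the log2(FPKM + 1) scale of the deposited values. That rank moved with the setting. With a pseudocount of 0.1, Rhox5 (-0.86) and Rhox8 (-0.76) were below Aard (-0.75). Under quantile normalization Rhox5 (-0.71) was below Aard (-0.63), and without WT replicate 3 Shbg (-0.73) was below Aard (-0.68). Depth does not limit Aard, with 1949 to 4094 reads per library. Rad21, the nearest protein-coding gene on 1 side and part of the cohesin complex, was at 98.1 ± 3.18 and 114 ± 9.41 FPKM (SD, n = 3).

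Defb19, a beta-defensin gene of Sertoli cells, had the highest mean of the 9. It (ENSMUSG00000050645, chromosome 2, 152576086 to 152580312, minus strand, 2 exons) was at 465, 302 and 420 FPKM in WT and at 256, 294 and 253 in cKO. WT replicate 2 and cKO replicate 2 were close to each other, so the groups stood apart by a narrow margin. The log2 difference was -0.54 (SE 0.19, 95% interval -0.98 to -0.10, limma adjusted p = 0.379). The Defb19 transcript is short, at 394 bases. Its log2 difference was -0.39 with length and GC trends removed and -0.37 under quantile normalization. Of 9 beta-defensin genes listed, Defb36 was the only other one above the mean of 1 FPKM, with means of 21.5 ± 13.3 in the WT and 16.2 ± 6.39 in the cKO libraries (SD, n = 3) and overlapping groups, and its neighbour Defb21 was at 0 in every library.

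The secreted carriers Clu and Trf overlapped between groups. Clu encodes clusterin, a glycoprotein and a major secretion of Sertoli cells. The gene (ENSMUSG00000022037, chromosome 14, 65968483 to 65981547, plus strand) was at 314, 269 and 342 FPKM in WT and at 289, 295 and 280 in cKO. All cKO libraries lay inside the WT range. The log2 difference was -0.09 (95% interval -0.42 to 0.25, limma adjusted p = 0.805), and it turned to 0.10 under quantile normalization, 0.00 with rescaling without 18S, mitochondrial and haemoglobin genes, and 0.06 with length and GC trends removed. It was -0.18 without WT replicate 2 and -0.01 without WT replicate 3. With 15505 to 19147 reads per library, counting error is small beside the spread of the WT libraries.

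Trf encodes transferrin, which carries iron to germ cells behind the blood-testis barrier. It (ENSMUSG00000032554, chromosome 9, 103204001 to 103230444, minus strand) was at 3.90, 2.46 and 3.44 FPKM in WT and at 2.75, 3.54 and 2.92 in cKO. The WT libraries spanned more than the cKO libraries did. The log2 difference was -0.06 (95% interval -0.44 to 0.32, limma adjusted p = 0.897), and it was -0.20 without WT replicate 2, 0.05 without WT replicate 1, 0.01 with that rescaling and 0.02 with length and GC trends removed. In GENCODE M21, 63.5% of its exon bases are shared with Gm20425 on the same strand, a gene with no row in the table, so the level is uncertain.

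Drd4, a dopamine receptor gene, was scarcely detected. It (ENSMUSG00000025496, chromosome 7, 141292006 to 141296464, plus strand) was at 0.316, 0.247 and 0.272 FPKM in WT and at 0.208, 0.0503 and 0.127 in cKO, from 17, 14 and 15 reads and from 12, 3 and 7 reads. All cKO libraries were below all WT libraries, by as little as 2 reads. Summed reads were 46 in WT (95% Poisson interval 33.7 to 61.4) and 22 in cKO (13.8 to 33.3), intervals that cover counting error only. Its mean was below the minimum of 1 FPKM, so it was not among the tested genes. With no filter on low values the log2 difference was -0.18 (limma adjusted p = 0.700), and by limma voom on recovered reads -1.27 (SE 0.57, 95% interval -2.53 to -0.02, adjusted p = 0.436).

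**Figure D2:**
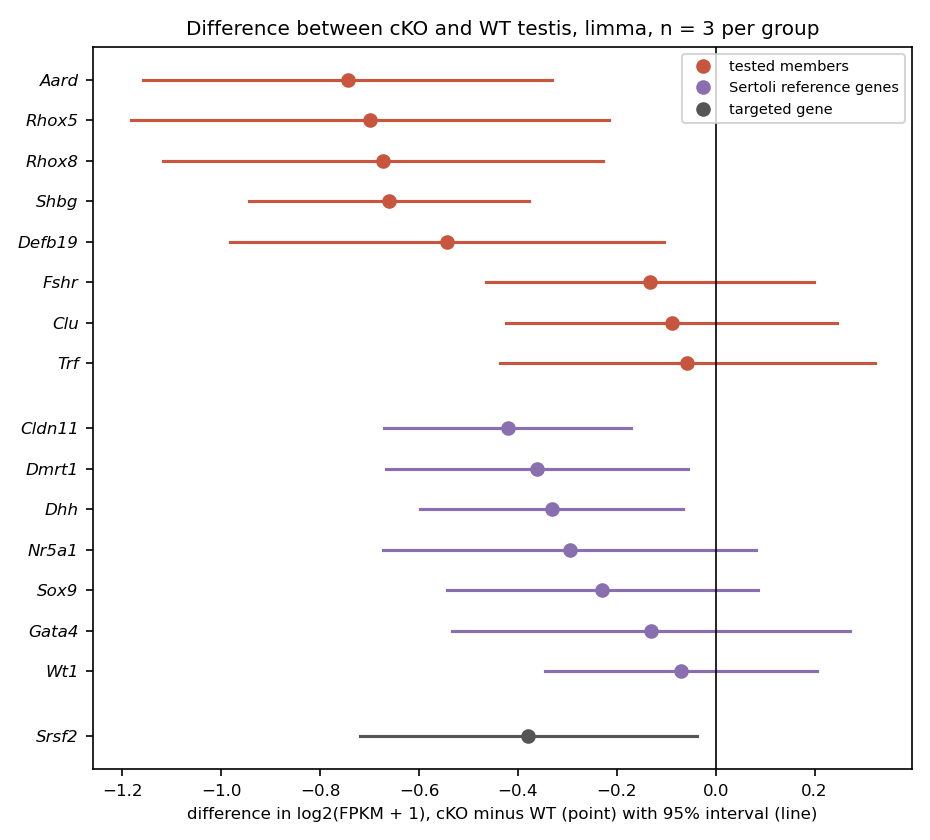
Differences in log2(FPKM + 1), cKO minus WT, as points with 95% limma intervals, for the 8 tested members (red), 7 Sertoli reference genes (purple) and Srsf2 (grey); n = 3 per group. Aard, Rhox5, Rhox8, Shbg and Defb19 lie between -0.74 and -0.54 with intervals below 0, while Fshr, Clu and Trf lie between -0.13 and -0.06 with intervals that cross 0; no gene shown passed the adjusted threshold.

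Within each group the libraries kept a partly shared order over the members. WT replicate 2 was the lowest WT library for 8 of the 9 genes, all but Shbg, and WT replicate 1 the highest for 6. Among the cKO libraries, cKO replicate 3 was the lowest for 5 genes. Over all genes with enough reads, the difference between 2 libraries was set against counting error as a chi-square per gene. It was 52.8 between WT replicates 1 and 2 and 16.6 between WT replicates 2 and 3. The lowest of all pairs, 12.4, was between WT replicate 2 and cKO replicate 1. Spread among the WT libraries is therefore not particular to the members. Without WT replicate 2 the groups stood apart with cKO lower for 7 of 8 tested members, and so did those of 19.4% of the 14253 genes tested in that fit. The members' median log2 difference was then -0.71. Over the 6 left-out libraries that median ranged from -0.71 to -0.49, and 4 or 5 members were lower at an unadjusted limma p under 0.05. Of all tested genes, 478 (of 14250, without cKO replicate 3) to 1464 (of 14253, without WT replicate 2) were lower at that level. Defb19 missed that level in 3 of these fits, those that left out WT replicate 3, cKO replicate 1 and cKO replicate 3 in turn.

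The 3 members with a mean of at least 10 FPKM were set against the other protein-coding genes at that level (5407 candidates) by the root mean square distance of their centred log2 profiles over the 6 libraries. Nearest to Aard were Id3, an inhibitor of helix-loop-helix factors (distance 0.0894), and Defb19 (0.105). The gene nearest to Defb19 was Gsta2, a glutathione transferase gene (distance 0.0496). Clu was most like Acaa2, of fatty acid oxidation (0.0223), and Insyn1 (0.0265). These distances describe 6 libraries that share their scaling.

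In bulk RNA, fewer Sertoli cells and less RNA per Sertoli cell cannot be told apart. A reference of 7 Sertoli genes (Sox9, Dhh, Cldn11, Wt1, Gata4, Nr5a1 and Dmrt1) was therefore set beside the members. Some of these genes, such as Gata4, Nr5a1 and Dmrt1, are also expressed in other testis cells. Cldn11 also stands in the further list of hormone-responsive Sertoli genes below, so the reference is not free of such genes. A reference without Cldn11 was not tested. All 7 had a negative log2 difference (0 passed the adjusted threshold), from -0.42 for Cldn11, a tight junction gene, and -0.36 for Dmrt1, a sex-determining factor, to -0.07 for Wt1. Sox9, a transcription factor gene of Sertoli cells, stood at -0.23, Dhh, the hedgehog ligand, at -0.33, Nr5a1 at -0.30 and Gata4 at -0.13. At an unadjusted limma p under 0.05, 3 of the 7 were lower (Cldn11, Dhh and Dmrt1), beside 7.68% of all tested genes. The same 3 had groups that stood apart with cKO lower, beside 9.92% of all tested genes. The mean of the 7 on the log2(FPKM + 1) scale was 4.90 ± 0.117 in the WT libraries and 4.64 ± 0.0793 in the cKO libraries (SD, n = 3), which did not overlap.

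Subtracting that mean in each library left Shbg as the member whose groups still stood apart. Its values were -1.14, -1.49 and -1.71 in WT and -1.87, -1.82 and -1.85 in cKO on the log2 scale, a difference of -0.40 (exact two-sided permutation p = 0.1, the smallest that 3 against 3 can give). After Benjamini-Hochberg adjustment over the 8 tested members, the exact permutation p of Shbg was 0.4. The share of all tested genes that stand apart after this subtraction was not computed. Leaving out WT replicate 1 reduced the Shbg difference to -0.24. Aard had a difference of -0.48 (exact permutation p = 0.2), Rhox5 of -0.44 (0.3), Rhox8 of -0.41 (0.4) and Defb19 of -0.28 (0.3), each with overlapping groups. Without WT replicate 1, Aard stood at -0.31 and Defb19 at -0.10, Rhox8 stood at -0.16 without cKO replicate 1, and Rhox5 at -0.28 without cKO replicate 3. Fshr, Clu and Trf were on the other side, at 0.13, 0.17 and 0.20 (exact permutation p = 0.4, 0.2 and 0.4), also with overlap. Leaving out 1 library in turn gave 0.02 (without cKO replicate 3) to 0.23 (without WT replicate 1) for Fshr. The same gave 0.08 to 0.25 for Clu and 0.06 to 0.37 for Trf, lowest without WT replicate 2 and highest without WT replicate 1. Under quantile normalization Aard (-0.41) and Clu (0.31) also had an exact permutation p of 0.1. At this number of libraries a difference between members and the reference could not pass a threshold of 0.05.

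**Figure D3:**
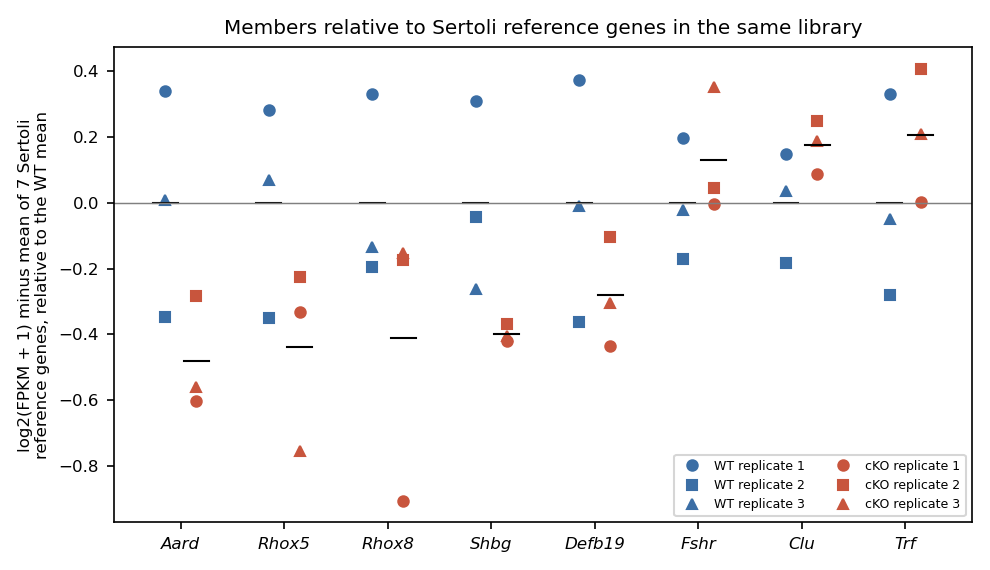
Each tested member's log2(FPKM + 1) minus the mean of 7 Sertoli reference genes in the same library, drawn relative to the WT mean; symbols mark replicates, blue is WT, red is cKO, and short black lines are group means. The cKO points of Shbg lie below all WT points; the other 7 members overlap, with cKO means from -0.48 (Aard) to 0.20 (Trf).

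Components of the FSH pathway went both ways. Of 27 tested genes of the list of 30, which includes Fshr, 16 differences were negative and 11 positive (median -0.10 on the log2 scale), and 0 passed the adjusted threshold. At an unadjusted limma p under 0.05, 3 were lower and 1 was higher, beside 7.68% and 4.65% of all tested genes. Counts this small do not set the list apart from all genes. Usf1, which encodes an E box factor that binds the Fshr promoter, was at 35.5, 25.9 and 27.6 FPKM in WT and at 23.9, 19.8 and 18.9 in cKO, a log2 difference of -0.48 (limma adjusted p = 0.378). Its partner Usf2 stood at -0.32, Gnas, the stimulatory G protein subunit, at -0.44, and Pde8a, a cyclic AMP phosphodiesterase, at 0.31. Creb1, the cyclic AMP response factor, was at 6.25 ± 0.753 and 7.39 ± 1.204 FPKM (SD, n = 3). The groups did not overlap for Usf1, Usf2 and Pde8a. Over all tested genes they stood apart for 9.92% with cKO lower and 8.69% with cKO higher.

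Androgen signalling genes were centred near 0. Of 20 tested genes of 21, 8 differences were negative and 12 positive (median 0.03 on the log2 scale), and 0 passed either the adjusted threshold or an unadjusted limma p under 0.05. The lowest p values belonged to Foxo1, a forkhead factor (0.25), Ncoa4, a receptor coactivator (0.30), Hsp90aa1, a chaperone of steroid receptors (0.36), and Src, a kinase (-0.26). Of these, Foxo1 had groups that did not overlap, with cKO higher, as did 8.69% of all tested genes.

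A further list of 32 hormone-responsive Sertoli genes had 27 tested members. It was drawn from general knowledge, but with earlier results of these data known. Of these 17 differences were negative and 10 positive, the median was -0.12, and 0 passed the adjusted threshold. At an unadjusted limma p under 0.05, 5 were lower and 0 higher, beside 7.68% and 4.65% of all tested genes. Groups stood apart with cKO lower for 9 of the 27 and with cKO higher for 1, beside 9.92% and 8.69% of all tested genes. The alpha subunit of inhibin, Inha, an FSH-induced product that feeds back on the pituitary, was at 353, 287 and 341 FPKM in WT and at 270, 220 and 220 in cKO, a log2 difference of -0.47 (limma adjusted p = 0.379). Inhbb, the beta B subunit, stood at -0.41, Tubb3, a tubulin gene that responds to androgen, at -0.44, Gdnf, the stem cell growth factor, at -0.44 and Cldn11 at -0.42. Some hormone targets, among the 10 with a positive difference, did not share this. Nr4a1, an immediate early target, was at 13.5 ± 1.04 and 14.3 ± 0.354 FPKM, and Plat at 5.26 ± 0.789 and 5.74 ± 0.484. Kitl, the stem cell factor gene, was at 22.6 ± 0.418 and 26.9 ± 3.44 (SD, n = 3). Nr4a1, Plat and Kitl were chosen after their values were seen, as were Cyp19a1, the aromatase gene, and Eppin, an androgen-responsive gene, which had means below 1 FPKM in both groups.

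Secreted Sertoli products leaned to the lower side. Of 19 tested genes, which include Trf, Clu, Shbg and Defb19, 16 differences were negative and 3 positive, with a median of -0.31. None passed the adjusted threshold (0 of 19). At an unadjusted limma p under 0.05, 7 were lower and 0 higher, beside 7.68% and 4.65% of all tested genes. The most negative were Cst9, a cystatin gene, at -1.01 and Amh, the hormone of immature Sertoli cells, at -0.995, both beyond any of the 8 tested members. How the lists differ from one another was not tested.

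**Figure D4:**
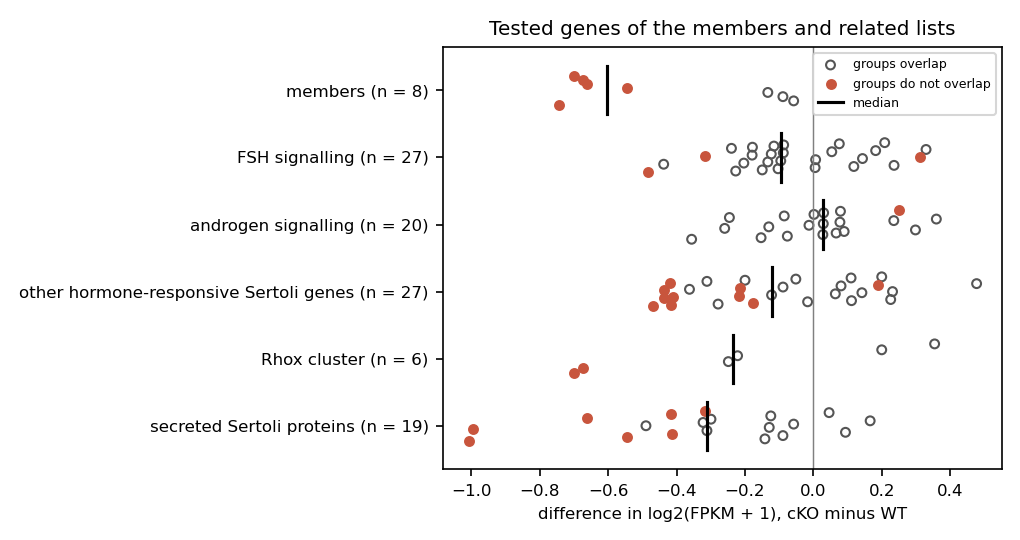
Differences in log2(FPKM + 1), cKO minus WT, of the tested genes of the members and of 5 related lists; each point is a gene, filled where the 3 WT and 3 cKO libraries do not overlap, and vertical lines are medians. Medians run from -0.60 for the members to 0.03 for androgen signalling, some genes stand in more than 1 list, and no point shown passed the adjusted threshold.

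The 13 Sertoli markers, which include the 7 reference genes, summed to 1362 to 1790 FPKM in WT and 967 to 1125 in cKO. All 13 differences were negative, and 0 passed the adjusted threshold. At an unadjusted limma p under 0.05, 5 were lower, beside 7.68% of all tested genes. Groups stood apart with cKO lower for 6, beside 9.92% of all tested genes. Markers of other cell types moved beside the members in part. Summed levels of the 8 germ cell markers were 120 to 217 FPKM in WT and 163 to 245 in cKO, with all 6 tested ones positive in difference. Those of the 7 Leydig cell markers were 1276 to 1903 and 1495 to 1743 FPKM. The 6 macrophage markers summed to 20.4 to 24.3 and 15.5 to 19.9 FPKM, and the 5 endothelium markers to 77.6 to 87.7 and 68.7 to 76.6. The macrophage sum did not speak for its genes: of 5 tested, 2 differences were negative and 3 positive (median 0.04 on the log2 scale). All 5 endothelium differences were negative. Red cell markers, 5 genes, summed to 2712 to 5657 and 4860 to 6438 FPKM, and the 5 peritubular myoid markers to 172 to 206 and 175 to 207. The part of these shifts, and of the 18S and mitochondrial shares, in the levels of the members was not tested.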

How the data were processed

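RNA of whole testis was sequenced in 3 WT and 3 cKO libraries, made with a SMARTER mRNA-Seq kit from Trizol RNA, per the labels' protocols. The authors deposited 1 table of FPKM values. Builds named were GRCm38 and mm10, per the submitters' processing notes; the sources used here do not give the aligner, counter, annotation or use of strand. FPKM times gene length gave whole multiples of 1 step per library for 99.99% of values above 0, within 0.01, from which reads were recovered. The median-of-ratios factors of the deposited FPKM were equal in all 6 libraries (1.01), so the values already stand on that scale.

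The 9 genes and all lists were chosen with earlier results of these data known. Values were tested as log2(FPKM + 1), a scale that understates changes of low genes, for the 14238 genes averaging at least 1 FPKM. Version 3.58.1 of limma in R 4.3.3 was used, its prior variance following the mean, and Benjamini-Hochberg adjusted p under 0.05 counted as passing. Named genes were the 9, Srsf2, Usf1, Creb1, the 4 lowest p of each related list, the Sertoli reference, annotated neighbours and the 2 nearest profiles; others are said to be so. Some results that this rule would name are not reported here. The code was tested on simulated reads. Alternatives were pseudocounts, filters, scalings, variance models, a replicate block, limma voom on recovered reads (at least 10 in at least 3 libraries) and left-out libraries; length and GC trends (splines with 5 degrees of freedom, GC known for 97.9% of genes) were added after the data were seen. Positions are those of GENCODE M21 by gene identifier. A planned comparison of protein sequences was not run. Python 3.11.15, pandas 2.3.3, numpy 2.4.6, scipy 1.17.1 and matplotlib 3.10.9 were used.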

Additional observations from a re-analysis of the deposited data

How the results depend on the processing

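Over the 19 alternatives, 0 members passed the adjusted threshold. Their median log2 difference ranged from -0.76 (voom) to -0.45 (length and GC trends removed). At an unadjusted limma p under 0.05, 4 to 6 members were lower, of 5 to 9 tested. All-gene counts of that kind ran from 478 of 14250 (without cKO replicate 3) to 1464 of 14253 (without WT replicate 2). Groups stood apart with cKO lower for 4 members, of 5 tested (mean FPKM at least 5), to 7, of 8 tested (without WT replicate 2). In that last fit 19.4% of all tested genes stood apart in this way. Shbg, Rhox5, Rhox8, Aard, Defb19 and Fshr kept a negative difference in every alternative that tested them. Trf, at -0.20 to 0.0501 over the left-out libraries, reversed to 0.0501 without WT replicate 1, 0.014 with rescaling without 18S, mitochondrial and haemoglobin genes and 0.020 with length and GC trends removed; Clu reversed to 0.101 under quantile normalization, 0.0021 with that rescaling and 0.062 with those trends removed; the cause was not tested. With the replicate number as a block, 5 members were lower at an unadjusted p under 0.05 and the median was -0.60. Same-numbered libraries did not all deviate together (correlations of 0.09, -0.33 and 0.39 over 14238 genes). Libraries of different number gave -0.45 to 0.35. With 3 libraries per group these correlations cannot decide whether the numbers mark pairs. Median-of-ratios scaling repeats the deposited scale. Low reads limit Drd4, and 3 libraries per group limit every test.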
